A study of Mus musculus with 2 samples.

Results

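Mir139, Mir149, Mir191 and Mir425 are 4 of the 2202 miRNA genes counted in small RNA libraries of mouse heart. They were chosen by symbol, as highly counted genes that lie inside other genes, so their levels are given as a description and not tested. The series holds 1 group of 2 libraries, each from the total RNA of a heart. The mice were female, of the F1 cross B6CASTF1/J between the B6 and CAST strains, and 36 days old. The libraries are biological replicates 1 and 2 in the labels, with separate heart samples and 1 shared donor code. No treatment, altered allele or control group is named, so the values below compare genes with each other and the 2 hearts with each other.

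A miRNA is cut from a hairpin in a longer transcript. After cutting, 1 arm of the hairpin is usually loaded onto an Argonaute protein and guides it to messenger RNAs that pair with its seed, the bases from position 2 to position 8. Many miRNA hairpins lie inside the introns of other genes and can be made from the transcript of that host gene. Mir139 lies in Pde2a, which encodes a cyclic nucleotide phosphodiesterase that cGMP activates and that heart muscle cells use to degrade cAMP and cGMP. Mir149 lies in Gpc1, which encodes glypican 1, a heparan sulfate proteoglycan of the cell surface. Mir191 and Mir425 lie side by side, and human miR-425 is known to repress the mRNA of atrial natriuretic peptide.

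The mature sequences are shown because the seeds set which targets each miRNA can pair with. RefSeq (GRCm38.p6) holds 8 mature arms for the 4 genes, each 21 to 23 bases long, and the capitals mark the seed.
mmu-miR-139-5p: uCUACAGUgcacgugucuccag
mmu-miR-139-3p: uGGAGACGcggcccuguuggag
mmu-miR-149-5p: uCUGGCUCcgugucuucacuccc
mmu-miR-149-3p: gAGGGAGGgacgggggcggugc
mmu-miR-191-5p: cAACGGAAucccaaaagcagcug
mmu-miR-191-3p: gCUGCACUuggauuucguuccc
mmu-miR-425-5p: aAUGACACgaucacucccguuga
mmu-miR-425-3p: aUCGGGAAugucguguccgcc
All 8 seeds differ from each other, so Mir191 and Mir425 share a locus but no seed. For 6 of the 8 arms, no other mature mouse miRNA in the RefSeq table has the same seed. The seed of miR-425-5p is shared with miR-489-3p, whose gene Mir489 had 0 counts in both libraries. That count allows a level of up to 1.45 CPM (counts per 1000000 sense-strand reads at miRNA genes) in replicate 1 and 1.70 CPM in replicate 2, taking 3 counts as the floor. The seed of miR-149-3p is shared with 4 other mature entries. Their genes had few counts: Mir1943 had 9 and 9 in replicates 1 and 2, Mir7016 had 1 and 0, and Gm27775 and Gm27740 had 0 in both. The deposited counts are per gene, so they do not say how the reads of a member divide between its arms.

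The hairpins are shown because the location of each member rests on them, with the mature arms in capitals. All 4 are the same in RefSeq and in GENCODE M21, the annotation of the deposited counts, and all lie on the plus strand.
Mir139: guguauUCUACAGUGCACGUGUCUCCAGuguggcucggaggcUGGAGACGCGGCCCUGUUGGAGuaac
Mir149: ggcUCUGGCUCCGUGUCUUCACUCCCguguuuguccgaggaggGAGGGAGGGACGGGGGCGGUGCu
Mir191: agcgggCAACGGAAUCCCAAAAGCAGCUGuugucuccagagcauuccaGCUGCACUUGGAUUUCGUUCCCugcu
Mir425: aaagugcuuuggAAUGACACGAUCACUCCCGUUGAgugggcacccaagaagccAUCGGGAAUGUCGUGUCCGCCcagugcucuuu
None of the 4 shares a run of 18 bases with another measured hairpin read in the same direction, whereas 51.2% of all 2202 hairpins and 26.0% of the 335 detected ones do. Detection means here at least 2 CPM in each library. Reads that mapped to several places are in no gene's count. Their lengths were 68, 66, 74 and 85 bases for Mir139, Mir149, Mir191 and Mir425, so 3 of the 4 were shorter than the median of 83 bases over detected genes. Their GC content was 58.8% for Mir139, 68.2% for Mir149, 54.1% for Mir191 and 54.1% for Mir425, all above the median of 51.4% over detected genes. Predicted folding energy per base was -0.524 kcal/mol for Mir139, -0.556 for Mir149, -0.473 for Mir191 and -0.373 for Mir425. The median over detected genes was -0.436 kcal/mol per base, so Mir425 alone of the 4 had a weaker predicted fold than that median.

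Sequencing depth was alike in the 2 libraries. Replicate 1 had 2074961 and replicate 2 had 1766135 sense-strand reads at miRNA genes, which are 37.0% and 35.4% of all reads in the tables. A further 42.0% and 39.8% mapped to several places. The label heart was checked against 8 miRNA genes of heart and striated muscle, of which 5 were detected. Their sum was 6211 CPM in the replicate 1 heart and 8750 CPM in the replicate 2 heart. Most of it came from Mir208a of the cardiac myosin gene Myh6, at 3809 and 5069 CPM, and Mir499, at 2214 and 3475 CPM. The miR-1 and miR-133 genes of the list had low counts. Mir1a-2 averaged 47.8 CPM, Mir1a-1 3.91, Mir133b 3.31, Mir133a-1 2.49 and Mir133a-2 1.05 CPM. Reads that mapped to several places are in none of these counts, so a low count need not mean a low level of the miRNA. How many such reads belong to these genes was not tested. Intervals and floors here cover counting error only, since PCR reads without molecular identifiers are not independent molecules.

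The 4 genes together held 5.07% (95% exact interval 5.04 to 5.10) of sense-strand reads at miRNA genes in replicate 1 and 7.10% (7.07 to 7.14) in replicate 2. These shares, and the levels and ranks below, leave out reads that mapped to several places. A miRNA with many such reads would be ranked too low beside the members. All 4 were detected in both hearts. The order of their levels was the same in both: Mir139, then Mir149, then Mir191, and far below them Mir425. A mature miRNA is about as long as a read, so the levels were not divided by length. In whole hearts, more cells of a type and more RNA per cell cannot be told apart.

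**Figure D1:**
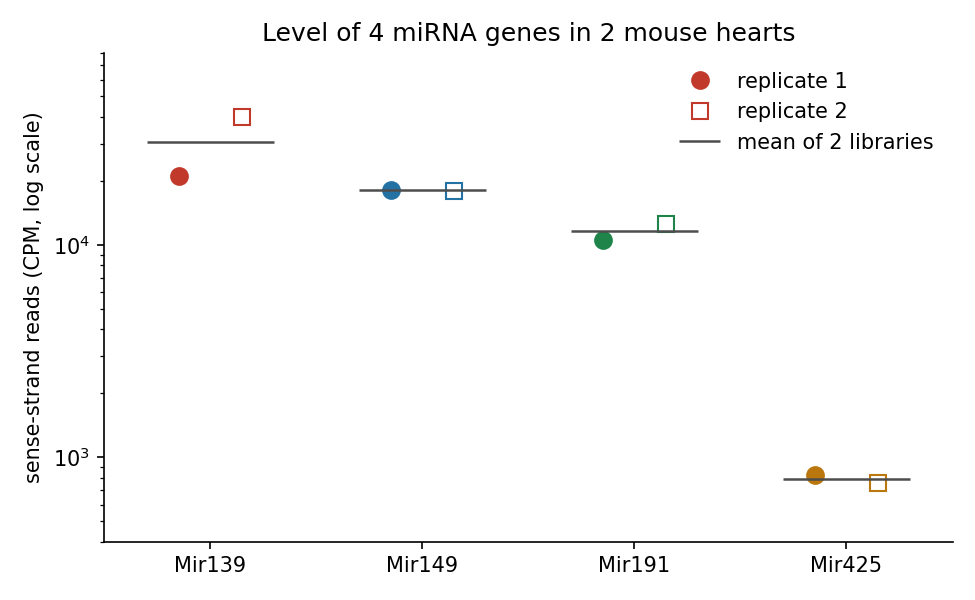
Level of each gene in CPM on a log axis, with filled circles for replicate 1, open squares for replicate 2 and a line at their mean. Mir139 stands at 21091 and 39853 CPM, the widest gap of the 4, while the points of Mir149 lie almost on their mean of 18054 CPM.

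Mir139 (ENSMUSG00000065446.1, chr7:101475376-101475443 on mm10, plus strand) was the highest of the 4. It had 43762 reads in replicate 1 and 70385 in replicate 2, which are 21091 CPM (exact interval 20895 to 21287) and 39853 CPM (39565 to 40142). Replicate 2 was the higher heart, 1.89 times replicate 1 in CPM, and the intervals do not overlap. The mean was 30472 ± 13267 CPM (SD, n = 2), rank 11 of 2202, with rank 12 in replicate 1 and rank 10 in replicate 2. Its coefficient of variation over the 2 hearts was 43.5%, beside a median of 18.2% over the 70 genes that averaged at least 1000 CPM.

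GENCODE M21 and RefSeq both place Mir139 inside Pde2a. The hairpin lies in intron 2 of the longest Pde2a transcript, 23907 bases after the exon before it and 5927 bases before the next exon, in an intron of 29902 bases. Among the other Pde2a transcripts it lies in intron 1, 2 or 3, or outside 2 short ones. GENCODE M21 also has a longer protein-coding gene, Gm45837, over Pde2a on the same strand, with the hairpin in its intron 3. No other measured miRNA gene lies near it on that strand: the nearest, Gm22655, is 405.7 kb away. All reads of Mir139 lay on its own strand, with 0 on the opposite strand in both libraries.

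Mir149 (ENSMUSG00000065470.1, chr1:92850378-92850443, plus strand) had nearly the same CPM in both hearts. It had 37813 and 31586 reads in replicates 1 and 2, which are 18223 CPM (exact interval 18042 to 18406) and 17884 CPM (17689 to 18081). Replicate 2 stood at 0.981 times replicate 1, and the intervals overlap. The mean was 18054 ± 240 CPM (SD, n = 2), with rank 13 in replicate 1, rank 14 in replicate 2 and rank 14 overall. Its coefficient of variation in CPM was 1.33%, the smallest of the 4 genes on that scale. With TMM scaling (trimmed mean of M values), Mir191 and not Mir149 had the smallest difference between the hearts.

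Mir149 lies in intron 1 of the full-length Gpc1 transcript, an intron of 21249 bases, 18280 bases after exon 1 and 2903 bases before exon 2. RefSeq and GENCODE M21 both place it inside Gpc1. The nearest measured miRNA gene on its strand, Mir6901, is 424.1 kb away, so Mir139 and Mir149 are both single miRNA genes in long introns. As for Mir139, no read lay on the opposite strand.

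Mir191 (ENSMUSG00000105497.1, chr9:108568319-108568392, plus strand) had 21986 reads in replicate 1 and 22167 in replicate 2. These are 10596 CPM (exact interval 10457 to 10736) and 12551 CPM (12387 to 12716), so replicate 2 was 1.18 times replicate 1. The mean was 11573 ± 1383 CPM (SD, n = 2), with rank 18 in replicate 1, rank 16 in replicate 2 and rank 18 overall. Mir425 (ENSMUSG00000065579.1, chr9:108568777-108568861, plus strand) had 1718 and 1341 reads. These are 828 CPM (789 to 868) in replicate 1 and 759 CPM (719 to 801) in replicate 2, with intervals that overlap. Its mean was 794 ± 48.6 CPM (SD, n = 2) and its rank 78 in replicate 1 and 74 in replicate 2, well outside the most abundant genes.

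The order of the 3 most abundant members was read against their spread. Mir139 over Mir149 was 1.16 (exact interval 1.14 to 1.17) in the replicate 1 heart and 2.23 (2.20 to 2.26) in the replicate 2 heart. Mir139 was thus the higher gene in each heart, but by an unlike margin. The mean of Mir149 lies within 1 SD of the mean of Mir139, an SD that holds the wide gap of Mir139 between the hearts. The order held in both hearts, while the size of the difference is not settled by 2 hearts. Mir149 over Mir191 was 1.72 (1.69 to 1.75) in replicate 1 and 1.42 (1.40 to 1.45) in replicate 2, and the values of these genes do not overlap. Of the 6 ratios among the members, Mir149 over Mir425 changed least, at 22.0 (20.97 to 23.1) in replicate 1 and 23.6 (22.3 to 24.9) in replicate 2, although these genes lie on different chromosomes.

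**Figure D2:**
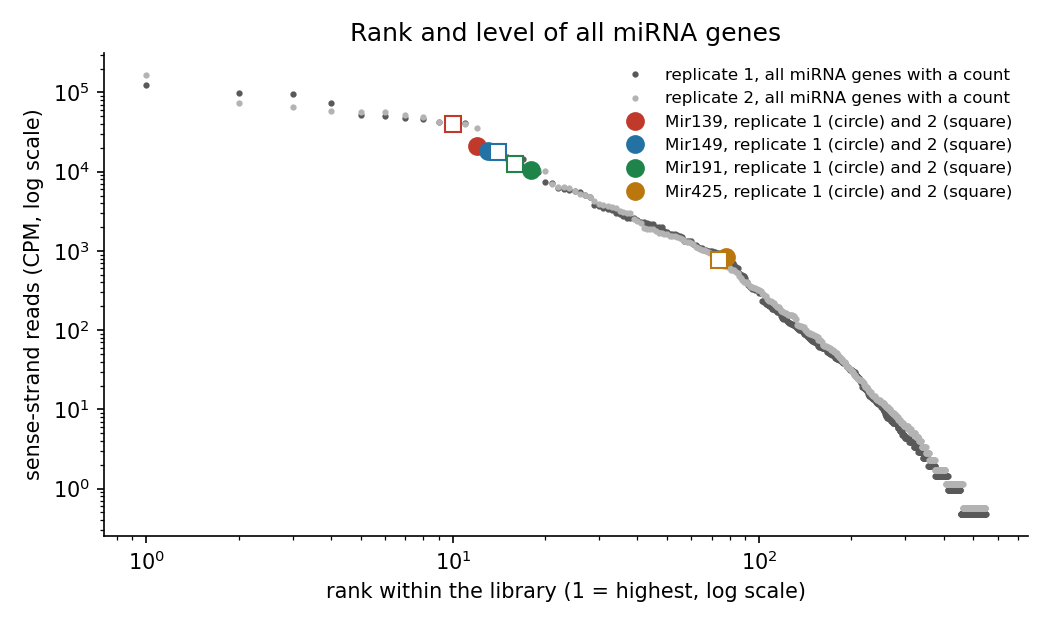
Level in CPM against rank for all miRNA genes with a count, both axes on log scales, dark points for replicate 1 and light points for replicate 2. Mir139, Mir149 and Mir191 (coloured, circles for replicate 1 and squares for replicate 2) lie between ranks 10 and 18 and Mir425 at ranks 78 and 74.

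The genes most like each member in level were found by distance in log2(CPM + 1) over the 2 libraries, as a description. For Mir139 the nearest was Mir26b, in an intron of the phosphatase gene Ctdsp1, with 16313 and 35199 CPM in replicates 1 and 2 and a distance of 0.41. Mir143 and Mirlet7b followed at 1.00 and 1.11. For Mir149 they were Mir30d (0.34), Mir99b (0.39) and Mir22 (0.82). For Mir191 they were Mir30a, with 9993 and 11754 CPM at a distance of 0.13, then Mir22 (0.54) and Mir99b (0.57). For Mir425 they were Mir30c-2 (0.26), Mirlet7a-1 (0.28) and Mir467d (0.28). With 2 libraries, likeness mostly means a like level.

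The host of Mir191 and Mir425 depends on the annotation. RefSeq (GRCm38.p6) places both inside Dalrd3, a gene for a protein with the DALR anticodon-binding domain known from human cells in the modification of arginine tRNAs, and lists mir-425 among its synonyms. Its span there is chr9:108567484-108572773. In GENCODE M21, which the deposited counts use, Dalrd3 starts at 108569886. That is 1493 bases after the end of Mir191 and 1024 bases after the end of Mir425, so both lie outside it. GENCODE M21 places the 2 hairpins inside a long non-coding RNA gene of the same strand, 4833445I07Rik (chr9:108567533-108569174). Both lie in the single exon of its longer transcript. In its spliced transcript, Mir191 lies in an intron of 303 bases and Mir425 starts just after the last exon, with 2 bases between. Thus 2 of the 4 members are intronic in GENCODE M21 and the other two are exonic in a non-coding gene, so the description of all 4 as intronic holds only in part there.

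**Figure D3:**
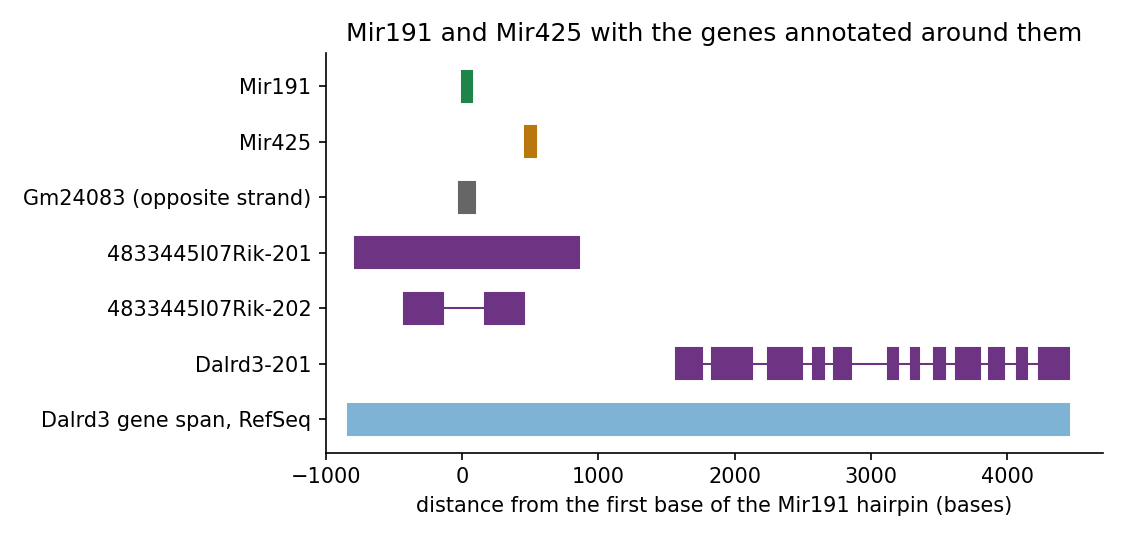
Map of the Mir191 and Mir425 locus, with the distance in bases from the first base of the Mir191 hairpin on the horizontal axis. Boxes are exons (for RefSeq Dalrd3, the whole gene span), purple for GENCODE M21 transcripts, and both hairpins fall inside the single-exon transcript of 4833445I07Rik and the RefSeq span but before the GENCODE exons of Dalrd3.

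A further miRNA gene, Gm24083, is annotated on the strand opposite to Mir191 (chr9:108568295-108568414, minus strand), and covers the whole Mir191 hairpin. It had 1 read in replicate 1 and 0 in replicate 2 on its own strand, against 21986 and 22167 on the strand of Mir191. All of the signal there was therefore counted on the Mir191 strand at this depth, apart from 1 read. When strand is ignored, the deposited table gives 0 reads to Mir191 in both libraries. In that column 10.7% and 9.42% of all reads of replicates 1 and 2 stand in a row for ambiguous reads, which is empty in the sense column. The counts of Mir139, Mir149 and Mir425 are the same with and without regard to strand. In all, 64 of the 2202 measured genes overlap a miRNA gene of the opposite strand, and Mir191 is the only member among them.

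Although Mir191 and Mir425 lie 384 bases apart on 1 strand, their reads were far from equal. There were 12.8 reads of Mir191 for each read of Mir425 in replicate 1 (exact interval 12.2 to 13.4) and 16.5 in replicate 2 (15.6 to 17.5), a mean of 14.7 ± 2.64 (SD, n = 2). Mir191 was the higher gene in both hearts, and the intervals of the ratio do not overlap. The ratio is free of library scaling. It was 1.29 times higher in replicate 2, and the log2 ratio changed by -0.37 (replicate 1 minus replicate 2). In Fisher's exact test (two-sided, Benjamini-Hochberg adjustment over 84 pairs of neighbouring miRNA genes) this change had an adjusted p of 5.76e-11. The test compares the reads of 2 libraries and not conditions.

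That change was not unusual among neighbours. Of the 84 pairs, which lie within 10 kb on 1 strand with 10 or more reads each, 32 changed their ratio between the hearts by this test, or 38.1%. The median absolute change was 0.57 on the log2 scale, and 26 pairs changed less than Mir191 and Mir425. Over the 20 pairs whose lower member had 1000 or more reads, 15 changed, the median absolute change was 0.31, and 11 pairs changed less. The gap in level within the pair was 14.6 times in mean CPM, beside a median of 6.81 times over all pairs, and 29 pairs had a larger gap.

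**Figure D4:**
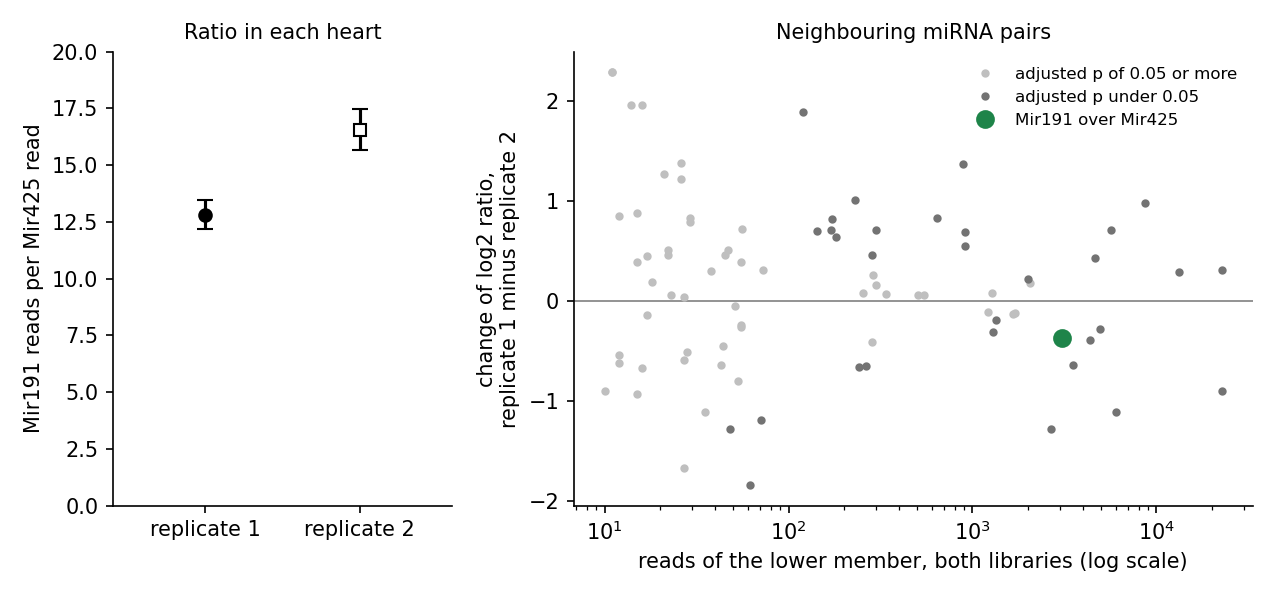
Left, reads of Mir191 per read of Mir425 in each heart with 95% exact intervals. Right, change of the log2 ratio within each of 84 neighbouring pairs (higher over lower member, replicate 1 minus replicate 2) against the reads of the lower member on a log axis, where Mir191 over Mir425 stands at -0.37, inside the range of pairs with like counts.

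Between the hearts, the 4 genes did not move together. Ratios are given as replicate 1 over replicate 2 on library sizes after TMM scaling (trimmed mean of M values). Each gene's split of reads was tested with a two-sided exact binomial test, adjusted by Benjamini-Hochberg over 359 genes with 10 or more reads. By this test 44.3% of all tested genes differed, 24.2% higher in replicate 1 and 20.1% higher in replicate 2. All 4 members passed, as did 63 of the 70 genes that averaged at least 1000 CPM, so passing says little at these read numbers. The test covers counting error, while the biological coefficient of variation over 374 genes was 40.5% by edgeR's common dispersion.

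Mir139 had a log2 ratio of -0.75, a level 1.68 times higher (exact interval 1.66 to 1.70) in replicate 2, and an adjusted p of 0 to the precision of the exact binomial test. Of those 70 genes, 14 had a larger absolute log2 ratio. Mir191 had a log2 ratio of -0.075, 1.05 times higher (1.03 to 1.07) in replicate 2, with an adjusted p of 1.88e-07 in the same exact test. That call was lost with DESeq2 size factors, where the log2 ratio was -0.012 and the adjusted p 0.562, and with replicate 1 thinned to the depth of replicate 2, where they were -0.032 and 0.0568.

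Mir149 and Mir425 lay on the other side. Mir149 had a log2 ratio of 0.20, 1.15 times higher (1.13 to 1.16) in replicate 1, with an adjusted p of 1.18e-70 in the exact binomial test. With library size alone it was 0.027, with an adjusted p of 0.0312. Mir425 had a log2 ratio of 0.29, 1.23 times higher (1.14 to 1.32) in replicate 1, with an adjusted p of 7.62e-08, and 0.12 with library size alone (adjusted p 0.0383). The median absolute log2 ratio over the 70 genes of 1000 CPM or more was 0.29, so Mir139 lies beyond it and Mir149 and Mir191 within it. Mir425, with a mean of 794 CPM, is not among those 70. Its log2 ratio of 0.294 was close to their median of 0.285. Library size alone moves every log2 ratio by -0.17 and DESeq2 size factors by 0.06. Over all tested genes, TMM scaling gave 87 higher in replicate 1 and 72 higher in replicate 2, and library size alone gave 67 and 103.

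**Figure D5:**
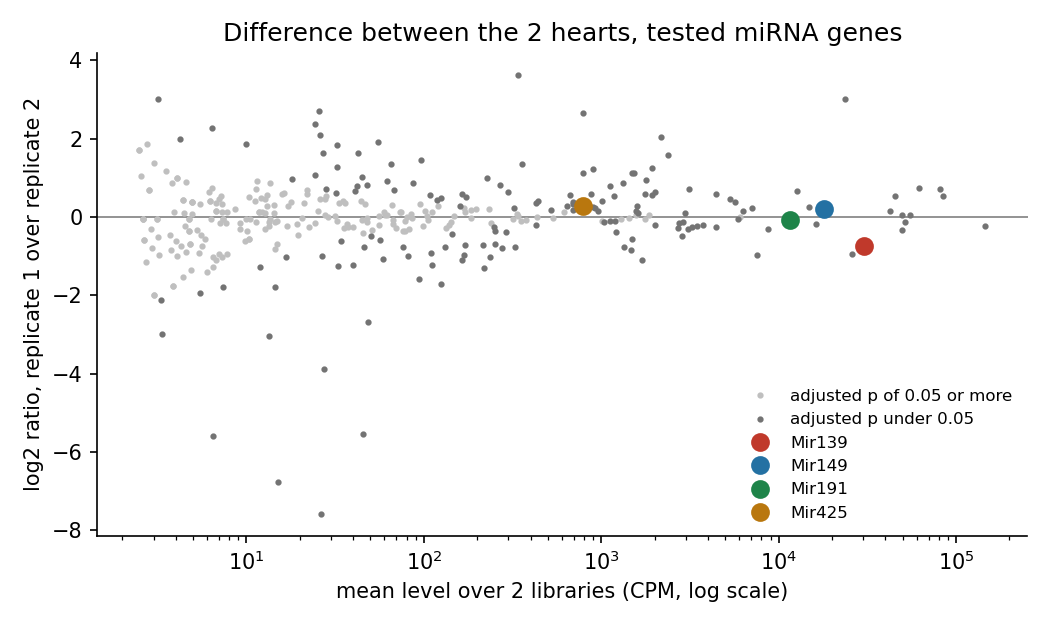
Log2 ratio of replicate 1 over replicate 2 against mean level in CPM (log axis) for the 359 tested miRNA genes, dark where the adjusted p was under 0.05. Mir139 lies at -0.75, Mir191 at -0.075, Mir149 at 0.20 and Mir425 at 0.29, on either side of 0.

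Markers of several cell types, red blood cells and endothelial cells among them, differed between the hearts as well. The 3 erythroid genes Mir451a, Mir144 and Mir486, known from red blood cells, were all detected and all higher in replicate 1 by the exact binomial test. Their sums were 45889 and 7589 CPM in replicates 1 and 2. Most of this was Mir451a, at 41391 and 5739 CPM. Mir144 stood at 3406 and 934 CPM, and Mir486 differed least, at 1092 and 917 CPM. With TMM sizes computed without these 3 genes, a change of scaling only, the log2 ratio of Mir139 was also -0.75, and those of Mir149, Mir191 and Mir425 were 0.20, -0.073 and 0.30. The endothelial genes, 3 of 4 detected, summed to 99059 and 66887 CPM in replicates 1 and 2. Of the 3 tested, 2 were higher in replicate 1. The smooth muscle genes, 2 of 2 detected, summed to 43118 and 44232 CPM, with 1 higher in each heart. The leukocyte genes, 5 of 5, summed to 5448 and 6481 CPM. The fibroblast genes, 4 of 5 with Mir199a-1 at 0, summed to 2599 and 3689 CPM. By the exact binomial test, leukocyte genes went both ways, with 2 higher in replicate 1 and 3 in replicate 2. So did fibroblast genes with 1 and 1, and muscle genes with 1 and 3 of 7 tested. Over all 359 tested genes, 24.2% were higher in replicate 1 and 20.1% in replicate 2 by this test. Neuronal genes, 3 of 9 detected, summed to 74.7 and 190 CPM, with all 3 copies of Mir124a at 0. Reads that mapped to several places are in no gene's count, so the 0 of Mir124a and Mir199a-1 need not mean absence. Liver genes, 4 of 4, summed to 116 and 109 CPM and embryonic genes, 1 of 11, to 12.0 and 201.6 CPM. Of 6 embryonic genes tested, 4 were higher in replicate 2 and 0 in replicate 1. The highest of them, Mir292, had 3 reads in replicate 1 and 157 in replicate 2. Of 3 neuronal genes tested, 2 were higher in replicate 2, and of 4 liver genes 1 was higher in replicate 1. The part of these cells in the ratios of the members was not tested.

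Of other miRNA genes known to lie inside host genes, a list of 24 was measured, and 22 were detected. The 6 highest by mean level were Mir378a (146001 ± 28746 CPM, in Ppargc1b), Mir126a (81414 ± 22066 CPM, in Egfl7), Mir26b (25756 ± 13355 CPM), Mir30e (6293 ± 8.69 CPM, in Nfyc), Mir151 (5293 ± 759 CPM, in Ptk2) and Mir208a (4439 ± 891 CPM; SD, n = 2 each). Mir139 lies above Mir26b in mean level, and Mir149 and Mir191 lie between Mir26b and Mir30e. Of the 23 list genes tested, 10 passed as higher in replicate 1 and 8 as higher in replicate 2. Over all 359 tested genes, 24.2% and 20.1% passed in these directions. Of the 70 genes that averaged at least 1000 CPM, 63 passed in either direction. The median log2 ratio of the list was -0.01, beside 0.01 over all tested genes. Of the 6 named, the log2 ratio was -0.94 for Mir26b, -0.24 for Mir208a and -0.23 for Mir378a, and 0.73 for Mir126a, 0.46 for Mir151 and 0.17 for Mir30e, so 3 lay on each side.

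By GENCODE M21, 727 of the 2202 measured genes lie in introns of protein-coding genes and in none of their exons, and 119 of these were detected. They held 39.4% of sense-strand reads at miRNA genes in replicate 1 and 45.0% in replicate 2. Mir139 ranked 4 and Mir149 ranked 6 among them by mean level, after Mir378a, Mirlet7g and Mir23b at the top. Mir139 made up 5.35% of the reads of that class in replicate 1 and 8.86% in replicate 2, and Mir149 4.62% and 3.98%. A further 112 genes overlap exons of non-coding genes, of which 42 were detected, with 23.0% and 22.1% of reads. Mir191 ranked 5 and Mir425 ranked 15 among those, below Mirlet7i, Mirlet7b and Mirlet7d. An overlap with an exon of any transcript, retained introns included, counted as exonic.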

How the data were processed

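Small RNA was sequenced from 2 mouse hearts. The authors deposited a table of raw counts per library over GENCODE M21 miRNA genes on mm10, per the deposited notes, in 3 columns (strand ignored, gene's strand, opposite strand), plus 4 rows that name no gene. Those 4 rows hold 63.0% of reads in replicate 1 and 64.6% in replicate 2. They stayed out of library sizes and tests. The aligner is not given in the sources used here, nor is the counter. All 2202 IDs matched GENCODE M21. Sense counts were scaled to CPM over gene rows, where 1 read is 0.482 CPM in the deeper library (replicate 1) and 0.566 CPM in the other. TMM sizes and dispersion came from edgeR 4.0.16 and alternative size factors from DESeq2 1.42.0. Log2 ratios had a prior count of 0.5. Exact binomial, Fisher and Clopper-Pearson methods (95% level, adjusted p threshold 0.05) used scipy 1.17.1, and folds RNAfold 2.7.2. The tests were checked on data simulated with counting error only, so that check does not cover the wider spread between these hearts. p-values measure only the spread of reads between these libraries. Named genes are the members, the 3 genes nearest in level, at most 6 genes inside other hosts, markers and opposite-strand genes. Members, lists and this rule were chosen with earlier results of these data known. Sequences come from RefSeq (GRCm38.p6).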

Additional observations from a re-analysis of the deposited data

How the results depend on the processing

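With library sizes over all reads, the mean levels were 10954 CPM for Mir139, 6537 for Mir149, 4181 for Mir191 and 288 for Mir425, because reads outside miRNA genes then enter the total. With counts that ignore strand, Mir139 had 42004 CPM, Mir149 25015 CPM and Mir425 1100.3 CPM, since the total is smaller, and Mir191 and the ratio of Mir191 to Mir425 were 0. Each library alone gave 21091 to 39853 CPM for Mir139, 17884 to 18223 for Mir149, 10596 to 12551 for Mir191, 759 to 828 for Mir425 and a ratio of 12.8 to 16.5 for Mir191 to Mir425. The log2 ratio of Mir191 between the hearts was no longer past the threshold with DESeq2 size factors (-0.012) or with replicate 1 thinned (-0.032), and its adjusted p ranged from 1.11e-69 to 0.562 over 5 alternatives. The calls of Mir139, Mir149 and Mir425 and of the change of the cluster ratio kept their direction and their side of the threshold under each alternative that gave a value. Without regard to strand, Mir191 and its pair could not be tested. The number of genes that differed was 148 to 170 over the alternatives, beside 159. The biological coefficient of variation was 10.3% from the median DESeq2 gene-wise dispersion, beside 40.5%. Library sizes without the erythroid genes were chosen after seeing the data. No paired analysis was possible because the series holds 1 group. With 2 hearts, no spread within the strain, age or sex can be estimated beyond these animals.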
